A study of Homo sapiens with 5 samples.

Results

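The heat shock chaperone genes HSP90AA1, HSP90AB1, HSPA8, HSPD1, HSPA5, HSPA9 and HSPH1 were examined for RNA bound by SRSF9 in HEK 293T cells, an immortalised human embryonic kidney line. Their members here are peaks: every row of the deposited peak table that overlapped 1 of 7 genomic intervals on hg19, chosen by position. This gave 90 of the 80514 rows. The genes themselves were picked with the peak counts and ratios of these conditions already known, so the differences between conditions below are a description only.

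Binding was mapped by eCLIP, in which RNA is fragmented, pulled down with a protein, recovered from a membrane and sequenced. The conditions were overexpression of SRSF9 together with ADAR2 (2 libraries) and overexpression of SRSF9 alone (2 libraries), so every library behind a value came from cells that overexpressed SRSF9. A further input library came from cells with both proteins and has no column of its own in the table. The antibody given in the labels is against SRSF9, whereas the extraction protocol speaks of beads for MYC. The labels do not say whether the 2 libraries of a condition were separate cultures, so any p-value measures only the spread between these libraries. For a condition in which a peak was found, its row holds a log2 ratio made by the authors for both libraries, and a class column marks peaks as found with ADAR2, without ADAR2 or in both (shared). What the ratio was taken against, read depth, strand and gene are not in the table, and neither was the level of the overexpressed proteins. A peak absent from a condition was not called or not kept there, which is not the same as RNA that was not bound. In these bulk lysates, fewer cells holding a bound RNA and less bound RNA per cell cannot be told apart.

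Heat shock chaperones bind unfolded or partly folded proteins and use ATP to help them fold, move or be degraded. Each compartment has its own: the HSP90 pair, HSPA8 and HSPH1 work in the cytosol and nucleus, HSPA5 in the endoplasmic reticulum, and HSPA9 and HSPD1 in mitochondria. Many are abundant in unstressed cells, and heat shock factors raise several of them through heat shock elements in their promoters, while HSPA5 answers to stress in the endoplasmic reticulum. SRSF9 is a serine/arginine-rich protein that binds RNA and influences splicing. ADAR2 edits double-stranded RNA by turning adenosine into inosine, and the study asked how SRSF9 represses its targets.

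The regulatory elements for which the family is named could be printed from RefSeq promoter windows on GRCh38.p14, each running from 250 bases before to 50 after a gene start. They are shown as a feature that the choice of rows did not use, and the table measures RNA binding, not promoter use. All 7 genes had at least 1 window, 11 in all. A heat shock element of 3 units, written TTCNNGAANNTTC and searched on both strands with overlapping matches allowed, was present for 4 genes, in 1 window each of the 11. Over all 35116 windows 0.490% held it, which is a share of windows and not of genes. The endoplasmic reticulum stress element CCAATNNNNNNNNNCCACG was present for HSPA5, against 0.0769% of all windows. The HSPA9 and HSPH1 windows held neither string of letters. Capitals mark the match nearest to the gene start with any match that overlaps it.
HSP90AA1, chr14:102087112-102087140, minus strand: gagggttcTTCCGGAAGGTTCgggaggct
HSP90AB1, chr6:44247823-44247851, plus strand: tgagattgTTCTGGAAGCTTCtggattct
HSPA8, chr11:123062171-123062199, minus strand: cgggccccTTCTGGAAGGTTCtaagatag
HSPD1, chr2:197500060-197500088, minus strand: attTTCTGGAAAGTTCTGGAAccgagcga
HSPA5, chr9:125241383-125241417, minus strand: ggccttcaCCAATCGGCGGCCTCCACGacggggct
HSP90AA1 and HSPD1 each had 2 windows and HSP90AB1 had 3, and in each of these genes 1 window held the element. All peak positions from here on are on hg19 and counted from 1. The annotation at hand is on GRCh38, so exons, introns and untranslated regions were not assigned to the peaks, and peak sequences were not printed.

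SRSF9 peaks over the chaperone intervals were far more evenly divided between the conditions than peaks elsewhere in the table. Of the 90 rows, 45 were found only with ADAR2, 26 only without it and 19 in both. Thus 64 peaks were present with ADAR2 and 45 without it, a ratio of 1.42, against 75687 and 8520 in the rest of the table, a ratio of 8.88. Rows found only without ADAR2 were 28.9% of the chaperone rows (95% Wilson interval 20.5 to 39.0, counting error over rows only) and 5.89% of the rest. Shared rows were 21.1% of the chaperone rows (14.0 to 30.6) and 4.70% of the rest. As a share of the peaks with ADAR2, shared rows were 29.7% in the chaperone intervals and 5.00% in the rest. As a share of the peaks without ADAR2 they were 42.2% and 44.4%. With 1 peak set per condition in the table, the counts cannot be set against a spread between libraries and were not tested.

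HSP90AA1, which encodes the stress-inducible cytosolic HSP90 alpha, had more peaks without ADAR2 than with it. Its interval held 25 rows, of which 8 were found only with ADAR2, 12 only without and 5 in both. Of the 8, 2 lay at the upper edge and may lie outside the gene. HSP90AB1, the constitutive beta form, held 6 rows, with 3, 1 and 2 in the same classes. HSPA8, the constitutive cytosolic chaperone Hsc70, held 15 rows, with 7, 4 and 4. HSPD1, the chaperonin of the mitochondrial matrix, held 19 rows, with 12, 4 and 3. In HSP90AB1, HSPA8 and HSPD1 peaks with ADAR2 outnumbered those without. HSPA5, also called BiP, held 13 rows, with 7, 3 and 3. HSPA9, called mortalin, the mitochondrial member of its family, held 10 rows, with 6, 2 and 2. HSPH1, a nucleotide exchange factor for the cytosolic HSPA chaperones, held 2 rows, both found only with ADAR2. Without the HSP90AA1 interval, rows found only without ADAR2 were 21.5% of 65. A requirement for a log2 ratio above 1 in both libraries of a condition left 23 peaks with ADAR2 and 1 without it, which lay in HSPD1, against 32587 and 789 in the rest of the table. Ratios were lowest in the second SRSF9-only library. There 1 of 45 chaperone peaks exceeded 1, 2.22%, against 9.60% in the rest of the table.

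**Figure D1:**
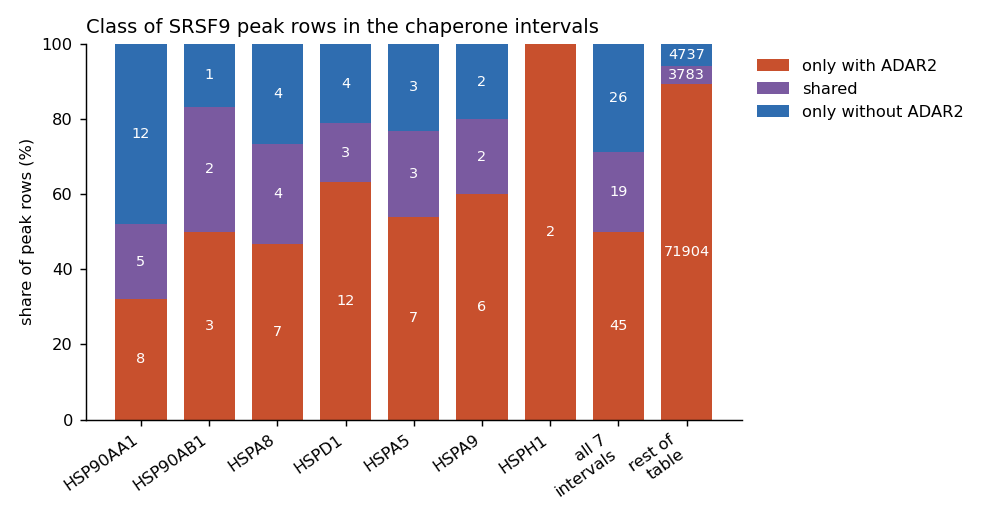
Share of peak rows (%) in each class for the 7 chaperone intervals, all 7 together and the rest of the table, with the number of rows printed in each segment. Rows found only without ADAR2 made up 12 of 25 in HSP90AA1, 26 of 90 overall and 4737 rows of the rest of the table.

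The intervals differ in length, so their peaks were also counted per kb. With ADAR2 the density was highest in HSPA8, at 1.83 peaks per kb, and HSPA5, at 1.43. HSPD1 had 0.833, HSP90AB1 0.625, HSPA9 0.364, HSP90AA1 0.217 and HSPH1 0.0741. Without ADAR2 HSPA8 and HSPA5 again led, with 1.33 and 0.857 peaks per kb. Peaks covered 8.32% of the HSPA8 interval with ADAR2 and 10.9% without it. In HSP90AA1 they covered 0.757% and 1.23%. These were the only intervals in which more bases were covered without ADAR2. In HSPA5 the same shares were 8.24% and 3.49%, and in HSPD1 3.14% and 1.61%.

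The low density of HSP90AA1 came from a long stretch without peaks. Of its 25 rows, 23 lay between 102547778 and 102553375 on chromosome 14, within 5.6 kb of an interval of 60 kb. The next row began 53.6 kb higher, at 102606945, and a second followed at 102606982 to 102607014. The gene is on the minus strand in RefSeq, so these rows lay at its upstream end. RefSeq also places WDR20 across that end of HSP90AA1. Without strand, and with gene edges on another build, these rows were not assigned to HSP90AA1 or WDR20. All 12 rows found only without ADAR2 and all 5 shared rows belonged to the lower cluster. The median distance between neighbouring rows was 134 nt in HSP90AA1, 105 nt in HSPA5, 187.5 nt in HSPA8 and 2100 nt in HSPA9. In HSPH1 both rows, from 31735922 to 31735944 and from 31736007 to 31736045 on chromosome 13, were centred 1.07 and 0.974 kb below the upper edge of an interval of 27 kb. That is the upstream side of a gene on the minus strand.

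Neighbouring genes touch some intervals. The HSPD1 interval spans 18 kb, against a RefSeq gene length of 13.7 kb, and RefSeq places HSPE1, which encodes the co-chaperonin of HSPD1, head to head with it. The 7 rows from 198365123 upwards may therefore belong to HSPE1. RefSeq also lists the small nucleolar RNAs SNORD14C, SNORD14D and SNORD14E inside HSPA8, SNORD63 and SNORD63B inside HSPA9, and SNORA105B inside HSPD1. Whether a row fell on one of them was not tested, since their positions are on another build. RefSeq lists further genes over or close to the chaperones. These are SLC35B2 and MIR4647 by HSP90AB1, RABEPK and HSPA5-DT by HSPA5, and the long noncoding RNAs LOC124902775 by HSPA8, LOC105379193 by HSPA9 and LOC105370148 by HSPH1. Without strand, rows near them, which may include the 2 HSPH1 rows, were not assigned to a gene. At the edges, the HSPA5 interval ended 0.022 kb below a further row found only with ADAR2, with a mean log2 ratio of 2.02. The row nearest to that edge inside the interval, from 128003347 to 128003576, had a mean of 0.94. The last HSP90AA1 row reached 0.014 kb past its edge, and apart from that HSPA5 edge the nearest outside rows were 2.42 to 689 kb away.

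**Figure D2:**
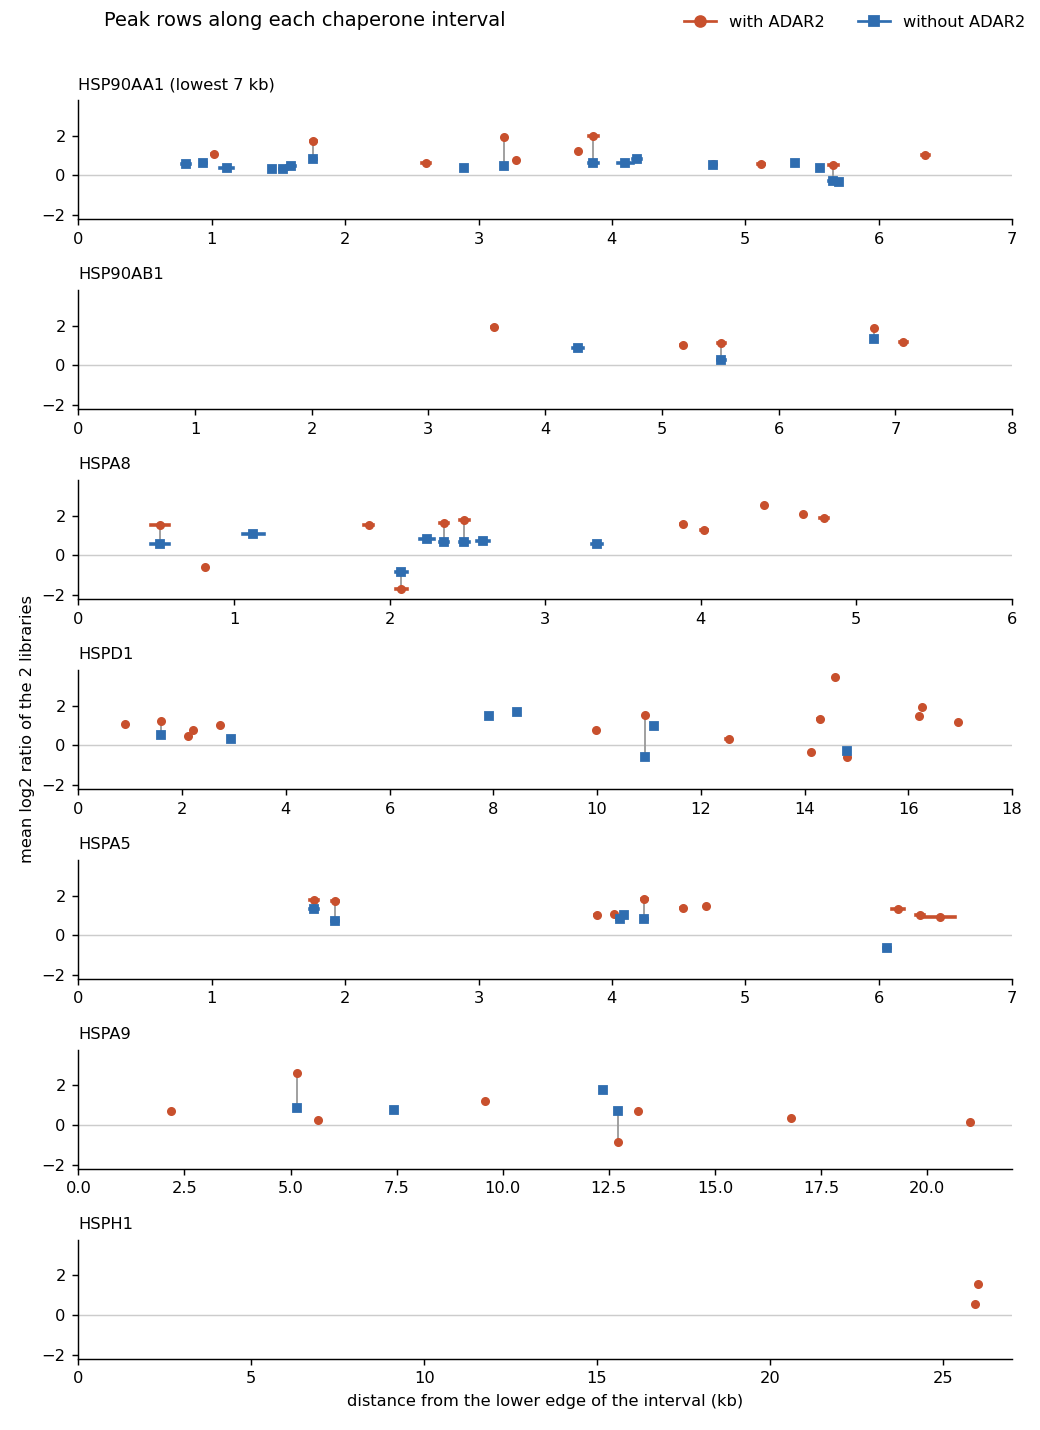
Mean log2 ratio of the 2 libraries of a condition (y) against distance from the lower edge of each interval in kb (x), with circles for peaks with ADAR2, squares for peaks without it, bars as wide as the peak and a grey line joining the values of a shared row. Only the lowest 7 kb of HSP90AA1 are drawn, which leaves out 2 rows found only with ADAR2. Its 12 rows found only without ADAR2 are interleaved with the others.

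Rows found only without ADAR2 lay among rows found with it. Of the 26, 9 had a row with ADAR2 within 100 nt and 23 within 1 kb, 34.6% and 88.5%, against 24.0% and 63.2% over the table. The median distance was 165.5 nt, against 497 nt over the table. No allowance was made for how closely rows of any class are spaced, and 12 of the 26 lay in 1 HSP90AA1 cluster. In HSP90AA1 all 12 lay within 288 nt of a row with ADAR2, and the closest, from 102552696 to 102552710, lay 2 nt from the shared region beside it. The exceptions beyond 1 kb were 2 rows in HSPD1, 2021 and 1493 nt away, and 1 in HSPA9, 1696 nt away.

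Pooled over the intervals, the rows found only without ADAR2 were wider than their class elsewhere. The median was 55.5 nt wide, with quartiles of 29.25 and 74.5 nt, while in the rest of the table it was 32 nt, with quartiles of 19 and 46 nt. Rows found only with ADAR2 had a median width of 33 nt, against 34 nt in the rest, and shared rows had 51 nt in both. By gene, the median width of rows found only without ADAR2 ran from 32 nt in HSPA5, the same as in the rest, to 86 nt in HSPA8. In HSPA8 the 4 rows found only without ADAR2 were 60 to 136 nt wide, while its 7 rows found only with ADAR2 were 8 to 58 nt wide. Rows are not replicates of a condition, so widths were not tested.

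Log2 ratios with ADAR2 were close to those of the rest of the table on average, but the libraries of that condition disagreed over these genes. Over the 64 chaperone peaks with ADAR2 the median was 1.56 in the first library and 0.74 in the second, against 1.16 and 1.06 over the rest. The median of the peak means was 1.18, against 1.10. The first library exceeded the second in 50 of 64 peaks, 78.1%, by a median of 0.63, against 61.1% and 0.05 in the rest. Rows found only with ADAR2 and shared rows both showed it, with a median gap of 0.59 and 0.81, against 0.01 and 0.24 in the rest. The gap lies between libraries of 1 condition. Peaks of a gene share their libraries, and neither the gap nor what moved with it was tested.

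The gap was widest in HSPA5. All 10 of its peaks with ADAR2 were higher in the first library, where they ran between 1.64 and 2.48, than in the second, where they ran between 0.23 and 1.30. These ranges did not overlap. The median gap was 1.37. HSPA8 followed with 1.05, and 10 of its 11 peaks were higher in the first library. The gap was 0.75 in HSP90AA1, where 11 of 13 were higher in the first library, 0.52 in HSP90AB1 (5 of 5) and 0.42 in HSPD1 (10 of 15). HSPA9 and HSPH1 stood apart with -0.12 (3 of 8) and -0.06 (1 of 2). In the HSP90AA1 interval only the 2 rows at the upper edge, which may belong to WDR20, had the second library higher. They had 1.73 and 2.15 from 102606945 to 102606954 and 1.65 and 2.15 from 102606982 to 102607014. In the upper part of the HSPD1 interval the row from 198367190 to 198367218 had 0.48 and 2.45, and that from 198367254 to 198367291 had 1.39 and 2.45. Within each of these 2 pairs of rows the second library had the same value, so neither pair carries separate values of that library.

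**Figure D3:**
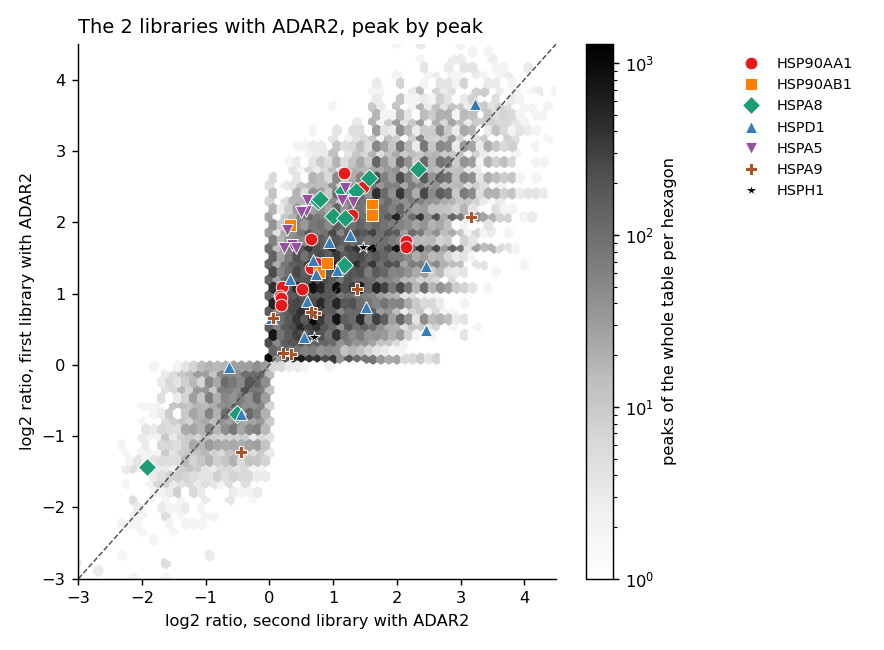
Log2 ratio in the first library with ADAR2 (y) against the second (x) for each peak with ADAR2, with grey hexagons for all peaks of the table within the axes on a log count scale and coloured symbols for the 7 chaperone intervals. The dashed line marks equal values. All 10 HSPA5 peaks lie above it, and the 8 HSPA9 peaks lie on both sides.

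Without ADAR2 the chaperone peaks were weaker in the second library, as in the whole table. Over the 45 peaks the median was 0.98 in the first library and 0.11 in the second, against 1.07 and 0.24 in the rest. The first exceeded the second in 43 of 45 peaks, 95.6%, against 91.6% in the rest. In the second library 15 of 45 values, 33.3%, lay between -0.1 and 0.1, against 13.0% in the rest of the table. Several such values were repeated between neighbouring rows. The 3 HSP90AA1 rows from 102548450 to 102548625 all had 0.0236 there, while the first library had 0.575, 0.658 and 0.914. In HSPA8 the 3 rows from 122930327 to 122930641 all had 0.008875, with 1.28, 1.32 and 1.40 in the first library. Over the intervals 7 of the 45 values in the second SRSF9-only library equalled that of a row less than 1 kb before, 15.6%, against 6.54% over the table. Such rows do not carry separate values of that library.

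With ADAR2 the median of the peak means was highest in HSPA8, at 1.56, followed by HSPA5 at 1.34 and HSP90AB1 at 1.17. HSP90AA1 and HSPD1 had 1.08 each, HSPH1 1.05 and HSPA9 0.53. Neighbours in this order differed by less than the gap between the 2 libraries within HSPA8, HSPA5, HSP90AB1 and HSP90AA1. The step between HSPH1 and HSPA9 was wider than the signed median gap of either, in which gaps of opposite sign cancel. Single gaps ran from -1.10 to 0.59 in HSPA9, and HSPH1 held only 2 rows, so this step is not shown to exceed the disagreement of the libraries. Without ADAR2 the order was HSP90AB1 at 0.85, HSPA5 at 0.83, HSPA9 at 0.81, HSPA8 at 0.65, HSPD1 at 0.53 and HSP90AA1 at 0.48. These are ratios, not levels of the RNAs.

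The highest chaperone peak found only with ADAR2 lay in the HSPD1 interval, in the stretch next to HSPE1, from 198365571 to 198365608, with 3.65 and 3.23. In HSPA8 the highest ran from 122932403 to 122932412, with 2.75 and 2.33. In the HSP90AA1 interval it was the row from 102606945, which may belong to WDR20, and in HSP90AB1 that from 44217544 to 44217571, with 2.24 and 1.61. In each of these both libraries were above 1. In HSPA5 the highest was from 128001702 to 128001708, with 2.32 and 0.59, and in HSPA9 from 137899567 to 137899600, with 1.07 and 1.38. In HSPH1 the higher row had 1.65 and 1.48 and the lower 0.39 and 0.70.

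Among peaks found only without ADAR2, the highest lay in HSPA9, from 137902345 to 137902400, with 2.57 and 1.00 in the SRSF9-only libraries. HSPD1 followed with the rows from 198359444 to 198359472, at 2.12 and 1.27, and from 198358890 to 198358944, at 1.98 and 0.93. These 2 HSPD1 rows stood alone in a stretch of the gene without any row with ADAR2 within 1 kb. In HSPA8 the highest was from 122929056 to 122929191, with 1.79 and 0.34, in HSP90AB1 the only one, from 44218238 to 44218321, with 1.40 and 0.30, and in HSPA5 that from 128001075 to 128001104, with 1.93 and 0.07. The 12 HSP90AA1 rows had low ratios, with peak means from -0.32 to 0.80. Their highest ran from 102551159 to 102551216, with 1.21 and 0.39.

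A log2 ratio below 0 in both libraries, that is, a ratio below 1, was found in 5 of 64 chaperone peaks with ADAR2 and 6 of 45 without it. These were 7.81% and 13.3%, against 7.45% and 25.8% in the rest of the table. The lowest was a shared HSPA8 region from 122930042 to 122930110, with -1.43 and -1.93 with ADAR2 and -0.65 and -1.0 without it, below 0 in all 4 libraries. HSPA8 also held a row found only with ADAR2 from 122928811 to 122928818 with -0.68 and -0.51. HSPD1 held the row from 198365123 to 198365141 with -0.02 and -0.63 with ADAR2. In HSPA5 the row from 128003043 to 128003083 had -0.03 and -1.24 without ADAR2, and in HSP90AA1 that from 102552696 to 102552710 had -0.34 and -0.30. In HSP90AB1 and HSPH1 no peak was below 0, and the lowest means there were 0.27, without ADAR2, and 0.54, with it.

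The 19 shared regions allow the same RNA segment to be set side by side in both conditions. The difference, with minus without ADAR2, had a median of 0.89 on the log2 scale, and 16 of 19 were higher with ADAR2. Over all 3645 shared regions of the table the median was 0.62 and 73.6% were higher. The chaperone median was 0.44 without the first library with ADAR2 and 0.38 without the second SRSF9-only library, with 14 of 19 higher in each case. It was 1.29 without the second library with ADAR2 and without the first SRSF9-only library, with 16 of 19 higher. After subtraction of each library's own median over the shared regions, called centring below, the chaperone median was 0.30, 13 of 19 were higher, and the median over the table was 0.03. Both libraries with ADAR2 lay above both without it in 7 of the 19, where 49.9% of all shared regions did, and below both in 3 of the 19, where 9.22% did. In the other 9 the conditions overlapped. After centring these counts were 4 and 4 of the 19, where 33.8% and 30.5% of all shared regions lay above and below. With limma across all 3645 regions and Benjamini-Hochberg adjustment, 2 of the 19 were called higher, beside 18.5% of all regions, and 1 lower, beside 2.41%. Because the genes were picked with these conditions known, nothing is read from these counts.

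In HSP90AA1 the region from 102550184 to 102550204 had 2.69 and 1.18 with ADAR2 and 0.72 and 0.23 without it. The region from 102550829 to 102550894 had 2.49 and 1.46 with ADAR2 and 0.97 and 0.23 without it. Both had separate conditions, and their differences of 1.46 and 1.38 ± 0.59 (SE) had limma adjusted p-values of 0.0607 and 0.0780. Without the first library with ADAR2 the differences were 0.70 and 0.86 (limma adjusted p = 0.766 and 0.696), and after centring they were 0.87 and 0.79 (0.164 and 0.176). Without the second library with ADAR2 they were 2.22 and 1.89. The region from 102552628 to 102552693 changed sign, with 0.84 and 0.19 with ADAR2 and -0.31 and -0.30 without it. In the region from 102548743 to 102548779 the values 2.11 and 1.30 with ADAR2 overlapped 1.42 and 0.20 without it. The region from 102551757 to 102551765, 9 nt wide, had 0.97 and 0.16 with ADAR2 and 0.96 and 0.07 without it, nearly the same pair. HSP90AB1 had 2 regions, and in both the conditions overlapped. From 44219479 to 44219538 the values were 1.97 and 0.32 with ADAR2 and 0.53 and 0.006 without it, and from 44220806 to 44220832 they were 2.10 and 1.62 with ADAR2 and 1.86 and 0.83 without it.

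In HSPA8 the region from 122928468 to 122928580 had 2.09 and 1.00 with ADAR2 and 0.91 and 0.26 without it, with separate conditions. The neighbouring regions from 122930327 to 122930377 and from 122930454 to 122930509 overlapped between conditions. The first of them had 2.06 and 1.19 with ADAR2 and 1.28 and 0.01 without it. The region below 0 described above was lower with ADAR2 in both libraries, by -0.85 ± 0.59 (SE, limma adjusted p = 0.308). After centring it was called, with -1.44 and a limma adjusted p of 0.0150. In HSPA5, from 127998741 to 127998796, from 127998900 to 127998950 and from 128001227 to 128001260, the first library with ADAR2 was the highest of the 4 and the second SRSF9-only library the lowest. The first of these had 2.29 and 1.30 with ADAR2 and 2.10 and 0.51 without it. In all 3 the second library with ADAR2 lay below the first SRSF9-only library, so the conditions overlapped.

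In the fit to the values as deposited, the 3 called regions lay in HSPD1 and HSPA9. After centring, the HSPA8 region below 0 was called too. In HSPD1 the region from 198361904 to 198361961 had 1.83 and 1.27 with ADAR2 and -0.44 and -0.71 without it, a difference of 2.12 ± 0.59 (SE, limma adjusted p = 0.00426). In HSPA9 the region from 137895118 to 137895196 had 2.07 and 3.17 with ADAR2 and 0.98 and 0.72 without it, a difference of 1.77 ± 0.59 (SE, limma adjusted p = 0.0197). A second HSPA9 region, from 137902712 to 137902740, went the other way, with -1.23 and -0.44 with ADAR2 and 1.24 and 0.18 without it (difference -1.55 ± 0.59 SE, limma adjusted p = 0.0450). It lay 311 nt from the strong HSPA9 row found only without ADAR2. None of the 3 was called when any 1 of the 4 libraries was left out. The HSPD1 difference was then 1.84 to 2.40, the first HSPA9 difference 1.22 to 2.32 and the second -2.08 to -1.02. Over those fits and the other settings, the limma adjusted p ranged from 0.00423 to 0.262, from 0.0196 to 0.396 and from 0.00188 to 0.561. After centring the first HSPA9 region was not called (limma adjusted p = 0.0716). In the fit to the values as deposited, limma took 1 spread for all regions, so the SE is the same for each and those p-values do not use a region's own replicates. After centring and in the fits without an SRSF9-only library it also used the spread of the region itself. The other HSPD1 regions were also separate between conditions but were not called. From 198352582 to 198352613 the values were 1.33 and 1.06 with ADAR2 and 0.66 and 0.41 without it (difference 0.66, limma adjusted p = 0.452). From 198365803 to 198365830 they were -0.70 and -0.44 with ADAR2 and -0.15 and -0.41 without it (difference -0.29, limma adjusted p = 0.773). There the conditions nearly met, at -0.44 and -0.41, and the region lies in the stretch that may belong to HSPE1.

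**Figure D4:**
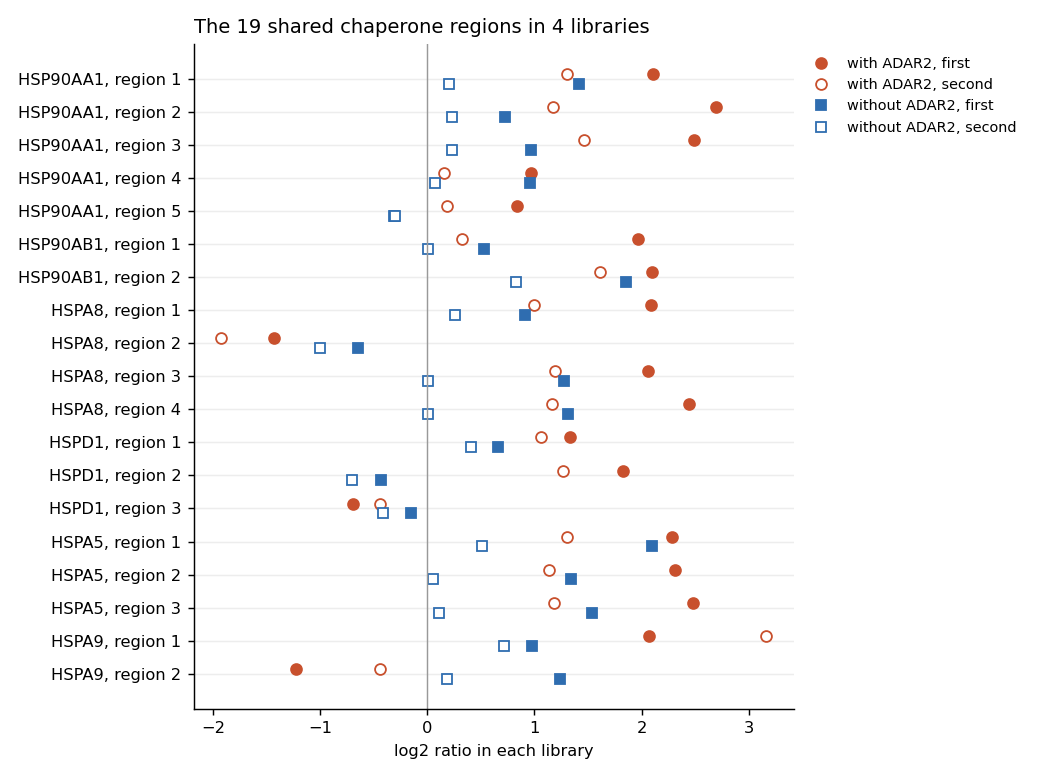
Log2 ratio (x) of the 19 shared chaperone regions in each of the 4 libraries, numbered by rising position within a gene, with circles for libraries with ADAR2 and squares for those without it, filled for the first and open for the second. In 7 regions both circles lie to the right of both squares, and in 3 to the left.

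Sign changes between conditions occurred in 3 of the 19 shared rows. In HSP90AA1 and HSPD1 1 row each was above 0 with ADAR2 and below 0 without it, and the HSPA9 row went the other way. Over the table the first pattern made up 22.4% of shared rows and the second 2.21%. In 14 of the 19 all libraries were above 0, 73.7%, against 69.1% over the table. Shared chaperone rows had a higher median ratio with ADAR2 than chaperone rows found only with it, 1.63 against 1.08. In the rest of the table these were 1.15 and 1.09. Without ADAR2, shared chaperone rows had a median of 0.60 and rows found only without it 0.62.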

How the data were processed

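Protein-bound RNA was mapped by eCLIP, per the labels' protocols, and the deposited table holds the authors' log2 ratios on hg19, per the submitters' processing notes. The aligner, peak caller, thresholds and ratio denominator are not named in any source used here. In each condition a pair of 0 values was taken as absent, and the class column assigned the column pairs to the conditions. Libraries are named in file order. Depth is unknown, so no interval was computed for a ratio.

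Rows overlapping an interval by at least 1 nt were kept. The members and lists were chosen with earlier results of these data known. All intervals, the highest and lowest rows per class and all shared regions were to be named. Co-chaperones and other chaperones listed beside them were not analysed here, since no hg19 annotation was at hand. Rows with identical coordinates were averaged (3802 shared rows to 3645 regions), and limma 3.58.1 in R 4.3.3 was fitted to all of them, threshold 0.05, after a check on simulated data. Python 3.11.15 with pandas 2.3.3 and scipy 1.17.1 gave the counts and Wilson intervals. Alternatives were interval edges, merging, ratio limits, centring and leaving out a library.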

Additional observations from a re-analysis of the deposited data

How the results depend on the processing

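Rows found only without ADAR2 were between 21.5% and 29.6% of the chaperone rows under all alternatives but 1, including 2 chosen after seeing the data (without the HSP90AA1 interval, and without its 2 rows at the upper edge). When rows had to exceed a log2 ratio of 1 in each library of any condition they were found in, they were 8.33% of 12 rows. Centring each library on its own median over all its peaks moved the median chaperone ratio to 0.0725 with ADAR2 and to -0.0375 without it, by construction. Over all shared regions, limma called 675 higher and 88 lower with ADAR2, 459 and 396 with each library centred on its median over the shared regions, which is the centring meant below, and 77 and 5 among regions above 0 in every library. Leaving out 1 library gave 0 to 199 higher and 0 to 22 lower, and 0 of both without either SRSF9-only library (1405 and 1051 at an unadjusted p under 0.05). A lone library was then assumed to vary like the others. Of the 19 chaperone regions, 3 changed direction under some setting, all with differences that were not called. The HSP90AA1 region from 102551757 had -0.54 after centring and from -0.39 to 0.49 over the fits without 1 library. The HSPA5 region from 127998741 had -0.10 after centring and from -0.30 to 1.28 over the same fits, and the HSP90AB1 region from 44220806 had -0.074 after centring. The cause of these changes was not tested. No paired analysis was possible because the table's columns carry no replicate name. Unknown depth limits every single ratio.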
